A study of Mus musculus with 11 samples.

Results

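Cell cycle phase genes are transcripts whose levels rise and fall as a cell duplicates its DNA and divides. The 42 genes described here were chosen by name: 18 S-phase genes, from Pcna to E2f1, and 24 genes from Mki67 onward listed as G2/M genes. The last 3 of these, Ccnd1, Ccnd2 and Ccnd3, encode D-type cyclins, which act in G1, and they are reported apart from the other 21. All 42 were looked up in 1 bulk table of 12588 genes and in 5 single-cell tables of 21926 to 23139 genes, all from mouse embryonic stem (ES) cells. The study compared ES cells held in soft agarose microgels with cells on tissue-culture plastic, and single cells of lines that overexpress plakoglobin (Jup), a junction protein, with wild type. The bulk libraries were Smart-seq2 libraries of 1000 cells each from a wild-type line labelled Rex1GFPd2, grown in 2i/LIF, a medium with a pair of kinase inhibitors and the cytokine LIF: 3 from microgels and 3 from plastic. The single-cell libraries, 1 per condition, came from inDrop, in which cells are barcoded in droplets and transcripts are counted as unique molecular identifiers (UMIs). They hold E14 wild-type cells on plastic in serum/LIF, E14 cells in microgels in serum/LIF, E14 cells on plastic in 2i/LIF, and 2 lines labelled PGLOW and PGHIGH, called JupLow and JupHigh here, that carry Jup under the constitutive CAG promoter and were grown on plastic in serum/LIF. Days in culture and the number of clones per line are not given in the sources used here.

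A dividing cell passes from G1 into S phase when D-type and E-type cyclins with their kinases release E2F factors from the retinoblastoma proteins, and E2F factors then switch on the replication genes. The MCM2 to MCM7 proteins form the helicase that opens DNA at origins, PCNA is the clamp that holds the polymerase, and RRM1 and RRM2 make deoxynucleotides. In G2 and mitosis cyclin B with CDK1, the Aurora and Polo kinases, the spindle kinesins and the checkpoint kinases take over, and CDC20 and UBE2C then drive the destruction of cyclin B. ES cells are known for a short G1 and for cyclin E that stays high through the cycle.

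The promoters of both groups often hold short runs of letters known from such genes. As examples 5 are shown, whose genes carry part of the bulk results below or hold many of these runs. RefSeq promoter windows on build GRCm38.p6, 250 bases before to 50 after a gene's start, matched 34 of the 42 genes by symbol. Each stretch below is the 160 bases just before the start, read 5′ to 3′ on the gene's strand. Capitals mark any of 3 sets of letters, searched on both strands: the E2F letters TTTGGCGC, TTTCCCGC, TTTCGCGC and TTTGCCGC, the CHR (cell cycle homology region) letters TTTGAA and TTCGAA, and CCAAT. The sets do not contain one another, but matches on opposite strands can overlap, so that a run of capitals can be longer than 1 match.
Mcm6, chr1:128359706-128359865, minus strand: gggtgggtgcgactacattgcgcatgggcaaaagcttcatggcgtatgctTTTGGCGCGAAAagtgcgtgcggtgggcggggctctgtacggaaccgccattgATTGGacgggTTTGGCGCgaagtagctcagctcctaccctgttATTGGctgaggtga
Mcm5, chr8:75109349-75109508, plus strand: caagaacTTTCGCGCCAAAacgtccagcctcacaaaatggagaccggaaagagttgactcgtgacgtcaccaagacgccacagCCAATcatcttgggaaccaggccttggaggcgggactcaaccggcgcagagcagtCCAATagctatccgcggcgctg
Ccnb1, chr13:100786487-100786646, minus strand: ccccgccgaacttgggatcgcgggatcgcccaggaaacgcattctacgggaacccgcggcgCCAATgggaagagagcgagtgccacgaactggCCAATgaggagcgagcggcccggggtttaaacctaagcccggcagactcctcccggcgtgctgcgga
Cdc20, chr4:118437344-118437503, minus strand: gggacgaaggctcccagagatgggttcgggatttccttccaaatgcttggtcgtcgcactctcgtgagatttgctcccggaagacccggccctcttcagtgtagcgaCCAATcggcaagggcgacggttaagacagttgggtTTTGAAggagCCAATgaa
Ube2c, chr2:164769769-164769928, plus strand: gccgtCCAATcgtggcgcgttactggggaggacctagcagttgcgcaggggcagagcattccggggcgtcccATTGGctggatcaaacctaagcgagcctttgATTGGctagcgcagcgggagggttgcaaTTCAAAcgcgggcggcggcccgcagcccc
The E2F letters stood in 29.4% of the 17 windows of S-phase genes (15 genes), in 5.56% of the 18 windows of G2/M genes and in 2.26% of all 32851 promoter windows. Mcm6 had 3 such matches, and Mcm3, Mcm5 and 1 window of Mcm7 had 2 each. The CHR letters stood in 77.8% of the G2/M windows, in 23.5% of the S-phase windows and in 19.2% of all windows. CCAAT stood in 83.3% of the G2/M windows, 64.7% of the S-phase windows and 37.4% of all windows, and CHR together with CCAAT in 72.2%, 17.6% and 7.52%. Top2a held 4 CHR and 6 CCAAT matches, while no CHR match was found in the windows of Ccnb1, Cenpe, Nusap1 and Birc5. These are matches of letters and say nothing of what bound there. Rrm1, without E2F letters, and Nusap1, without any of the 3 sets, are not shown. Both changed more in bulk than Mcm5 and Cdc20, which are.

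The bulk values are the submitters' normalised reads, and dividing each library by its smallest step gave back whole reads: 866721, 808903 and 707718 in microgel replicates 1 to 3, and 2390575, 2583256 and 637235 in plastic replicates 1 to 3. The bulk test was limma on log2 of the value plus 0.5 over 7878 genes with enough reads, with Benjamini-Hochberg adjusted p under 0.05 as the threshold. It called 2906 genes, 36.9% of those tested, 18.3% higher and 18.6% lower in microgels. All 8 ES cell markers were tested in the bulk libraries, and 5 rose and 2 fell in microgels, with a median log2 fold change of 0.92. Klf4 (1.84), Esrrb (1.55), Sox2 (1.51), Pou5f1 (1.31) and Dppa5a (0.53) rose, and Nanog (-0.34) and Zfp42 (-0.32) fell. Their summed values were 7626 to 7861 in microgels and 5653 to 6461 on plastic, and the part of this difference in those of the phase genes was not tested. In the same table none of the 7 fibroblast and none of the 7 primitive endoderm markers was listed. Single cells were barcodes with at least 1000 UMIs: 725 for wild type serum/LIF, 112 for microgels, 1200 for JupLow, 2153 for JupHigh and 2889 for 2i/LIF, with medians of 1731.5 to 2465 UMIs. No cell barcode was shared between libraries. Jup itself, the gene that the lines overexpress, stood at 36.7 CPM, which here means UMIs of the gene per 1000000 UMIs of the library (95% Poisson interval 28.8 to 46.0), in wild type serum/LIF. The library labelled JupLow had 37.9 (31.1 to 45.7), and the one labelled JupHigh had 47.8 (41.5 to 54.8). The intervals of both lines overlapped that of wild type in the same medium, that of JupHigh only in part. These Jup counts therefore do not clearly set the lines apart from wild type, and the lines are named by their labels only. Wild type in the other medium, 2i/LIF, had 46.7 (42.2 to 51.6). Whether transcripts of the introduced Jup are counted under this gene name was not tested.

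Most S-phase genes that passed the test were lower in microgels than on plastic, among them all 6 MCM genes, while 6 were not called and E2f1 rose. Of the 18 S-phase genes 17 could be tested, and 10 fell and 1 rose, against 18.6% of all tested genes lower, 18.3% higher and 36.9% called in either direction. The median log2 fold change of the 17 was -0.50, beside -0.02 over all tested genes. In 11 of the 17 every microgel library lay below every plastic library, which 25.0% of all tested genes did, and in 1 every microgel library lay above, as in 24.4% (49.5% in either direction). Summed over all 18 genes the values were 4404 to 4803 in microgels and 6018 to 6368 on plastic. In bulk libraries fewer cells in S phase and less transcript per cell cannot be told apart. The labels call the libraries triplicates without saying that they were separate cultures, so the p-values measure the spread between these libraries, which may be technical.

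All 6 genes of the MCM helicase fell. Mcm6 (chromosome 1, 128331590 to 128359664, minus strand, GRCm38) had 376, 494 and 456 normalised reads in microgel replicates 1 to 3 and 748, 769 and 806 in plastic replicates 1 to 3. No microgel library came near the lowest plastic library, and the log2 fold change was -0.82 ± 0.11 (SE; limma adjusted p = 1.94e-05). Mcm5 had 308, 357 and 363 in microgels and 492, 481 and 542 on plastic. Its groups were also apart, with a log2 fold change of -0.56 ± 0.10 (limma adjusted p = 0.000465). Mcm2 had 240.4, 273 and 295 in microgels and 389, 358 and 431 on plastic. It fell by 0.54 on the log2 scale (SE 0.11; limma adjusted p = 0.00114). Mcm3, Mcm4 and Mcm7 fell by 0.52, 0.50 and 0.33, each with groups that did not overlap. Summed over the 6 genes, which code for subunits of 1 complex, microgel libraries held 2056 to 2220 and plastic libraries 2998 to 3417. The call of Mcm7 was the only one among the 6 to be lost when a library was left out: its adjusted p was 0.0809 without microgel replicate 2, 0.0663 without microgel replicate 3, 0.0881 without plastic replicate 1 and 0.0558 without plastic replicate 3. Mcm7 also shares exonic bases with Cops6, Ap4m1 and a pair of microRNA genes, and whether the counting used strand is not given in the sources used here.

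Rrm1, Rrm2, Cdc6 and Slbp, which make DNA precursors, license origins and handle histone transcripts, also fell. Rrm1, the large subunit of ribonucleotide reductase, had 255, 259 and 225 normalised reads in microgels and 362, 391 and 449 on plastic. It fell by 0.70 on the log2 scale (SE 0.11; limma adjusted p = 0.000134), with the groups well apart. Rrm2, its small subunit, fell by 0.37 (limma adjusted p = 0.00523). Cdc6, which loads the MCM helicase at origins, had 90.3, 102 and 81.1 in microgels and 150.0, 137 and 144 on plastic. It fell by 0.66 (SE 0.13; limma adjusted p = 0.0010), and the highest microgel library lay below the lowest plastic one. Slbp, which binds the stem-loop of histone messages, had 266, 316 and 361 in microgels against 451, 468 and 443 on plastic, and fell by 0.54 (limma adjusted p = 0.00127). All 3 microgel libraries stayed under all 3 plastic ones.

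E2f1, an E2F factor, was the only S-phase gene that rose. It had 18.1, 13.5 and 19.2 normalised reads in microgels and 7.48, 7.83 and 7.59 on plastic, a log2 fold change of 1.08 ± 0.34 (limma adjusted p = 0.0178). The groups did not overlap, but these are few reads: 16, 11 and 14 recovered reads in microgels and 18, 20 and 5 on plastic. The call was lost without microgel replicate 1 (adjusted p = 0.0569) or 3 (0.0611), without plastic replicate 1 (0.0643) or 2 (0.0544), and when every library was thinned to the depth of the shallowest (0.0630).

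The remaining S-phase genes did not pass the test. Pcna, the replication clamp, had 339.7, 359.7 and 360.0 in microgels and 303, 366 and 301 on plastic, with a log2 fold change of 0.13 ± 0.11 (limma adjusted p = 0.351). Its groups overlapped, unlike those of the MCM genes. Ccne1, cyclin E1, had 256, 312 and 249 in microgels and 282, 286 and 269 on plastic (log2 fold change -0.04 ± 0.11, limma adjusted p = 0.797). Ccne2, cyclin E2, had 33.9, 40.5 and 19.2 against 47.8, 43.8 and 42.5, a log2 fold change of -0.58 ± 0.24 that missed the threshold (limma adjusted p = 0.0668) although the groups did not overlap. Without microgel replicate 2 it passed (adjusted p = 0.0223). Tyms, Gins2 and Cdc45, for thymidylate synthesis and for parts of the active helicase, had log2 fold changes of 0.03, 0.15 and -0.16. Fen1, the flap nuclease, was too low to test, with 7.90, 2.46 and 0 in microgels and 8.73, 10.2 and 10.6 on plastic. Its exons overlap those of Tmem258, whose values were 96.2 to 112 in microgels and 60.7 to 78.3 on plastic.

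**Figure D1:**
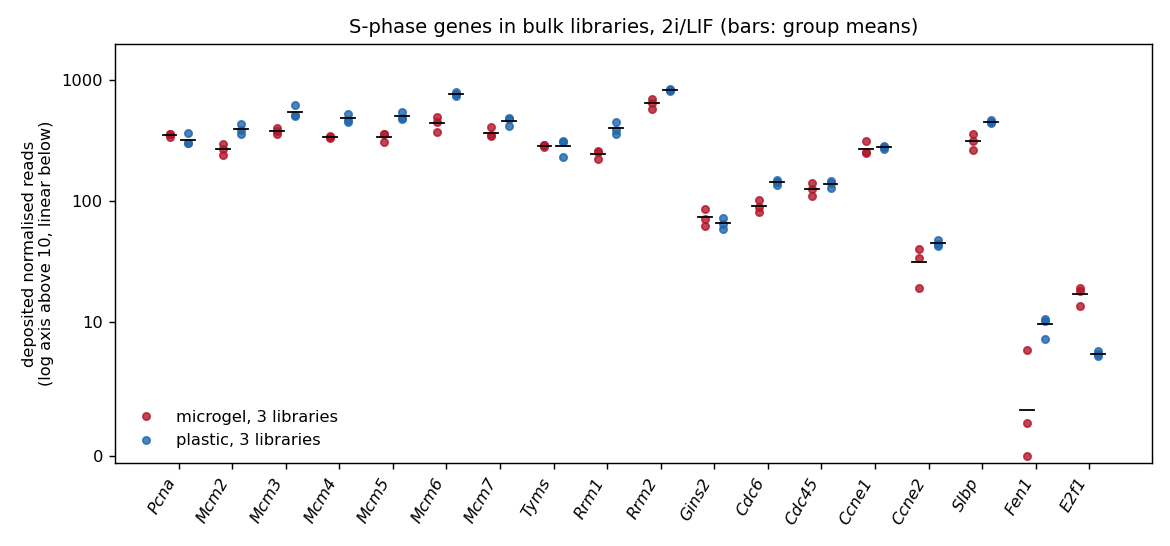
Deposited normalised reads (log axis above 10, linear below) of the 18 S-phase genes in the 3 microgel and 3 plastic bulk libraries, with a bar at each group mean. The MCM genes, Rrm1, Cdc6 and Slbp lie lower in microgels, Pcna, Tyms and Ccne1 overlap between the groups, and E2f1 lies higher at low values.

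The G2/M genes split. Of the 24 listed genes 23 were in the table and tested, and 8 fell, 2 rose (Birc5 and the D-type cyclin Ccnd3) and 13 were not called. Without the D-type cyclins 8 of 21 fell and 1 rose, with a median log2 fold change of -0.11, against 18.6% of all tested genes lower and 18.3% higher. In 7 of the 21 every microgel library lay below every plastic library, and in 3 every one lay above, against 25.0% and 24.4% of all tested genes.

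Among the genes for mitotic kinases and their cyclin, cyclin B1 fell and its kinase Cdk1 was not called. Ccnb1, cyclin B1 (chromosome 13, 100778650 to 100786570, minus strand, GRCm38), had 741, 787 and 764 normalised reads in microgels and 1086, 1216 and 1362 on plastic. It fell by 0.67 on the log2 scale (SE 0.10; limma adjusted p = 4.92e-05), and the groups were far apart. Cdk1 had 349, 424 and 372 in microgels and 409, 418 and 404 on plastic, a log2 fold change of -0.11 ± 0.10 (limma adjusted p = 0.431), with the groups overlapping. Ccnb2, cyclin B2, and Ccna2, cyclin A2, had log2 fold changes of -0.16 and 0.00 and were not called. Aurka and Aurkb, the Aurora kinases, fell by 0.40 and 0.37 (limma adjusted p = 0.00505 and 0.0316). Plk1, the Polo kinase, had a log2 fold change of 0.28 and was not called (limma adjusted p = 0.129), but passed without microgel replicate 2 (0.0198) and with edgeR (0.0479).

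Spindle and checkpoint genes that fell included Nusap1, Cdc20, Tpx2, Bub1 and Kif11. Nusap1, a protein that bundles spindle microtubules, had 130, 128 and 142 in microgels and 181, 219.5 and 219 on plastic. It fell by 0.63 (SE 0.12; limma adjusted p = 0.000780), with no overlap between groups. Nusap1 shares exonic bases with Oip5, whose values were also lower in microgels (81.3, 94.5 and 93.4) than on plastic (96.8, 109.6 and 104.7). The part of these shared bases in the Nusap1 difference was not tested. Cdc20, the activator of the anaphase-promoting complex, had 375, 349.9 and 427 in microgels and 569, 542 and 522 on plastic. It fell by 0.51 (SE 0.10; limma adjusted p = 0.000944), again without overlap. Tpx2, which targets Aurora A to the spindle, had 114, 123 and 98.9 in microgels and 155, 158 and 161 on plastic, and fell by 0.50 (SE 0.13; limma adjusted p = 0.00544). Bub1, a checkpoint kinase, had 92.5, 134 and 93.4 in microgels and 149, 129 and 152 on plastic, a log2 fold change of -0.44 ± 0.15 (limma adjusted p = 0.0280). Here the groups overlapped, since microgel replicate 2 lay above plastic replicate 2. Kif11, the kinesin that separates spindle poles, fell by 0.35 (limma adjusted p = 0.0472).

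Other markers of proliferating and dividing cells were not called lower. Mki67, which encodes the Ki-67 protein, had 74.5, 68.8 and 64.6 in microgels and 61.5, 61.8 and 48.6 on plastic, a log2 fold change of 0.28 ± 0.16 (limma adjusted p = 0.191). The microgel libraries all lay above plastic, but by less than the test needs. Top2a, topoisomerase II alpha, had 319, 325 and 302 in microgels and 298, 283 and 307 on plastic, a log2 fold change of 0.09 ± 0.10 (limma adjusted p = 0.502). Ube2c, the ubiquitin-conjugating enzyme of the anaphase-promoting complex, had a log2 fold change of 0.17 and microgel libraries all above plastic, and was not called (limma adjusted p = 0.143). Birc5, survivin, of the chromosomal passenger complex with Aurora B, rose by 0.32 (SE 0.12; limma adjusted p = 0.0418). Bub1b, Cenpe, Cenpf, Kif20b and Hmmr, of the checkpoint, kinetochore and spindle, were not called, with log2 fold changes from -0.22 to 0.27.

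Of the G2/M calls, those of Aurkb, Bub1, Kif11 and Birc5 were lost in several settings, with their direction unchanged. Those of Ccnb1, Nusap1, Cdc20, Tpx2, Aurka and Ccnd3 held in all 13 settings run. Without microgel replicate 1 the limma adjusted p was 0.115 for Aurkb, 0.116 for Bub1 and 0.160 for Kif11. Without microgel replicate 2 it was 0.0785 for Kif11 and 0.0975 for Birc5, and without microgel replicate 3 it was 0.0998 for Bub1 and 0.117 for Birc5. Without plastic replicate 1 it was 0.0961 for Aurkb, 0.0887 for Bub1, 0.117 for Kif11 and 0.0672 for Birc5. Without plastic replicate 2 it was 0.0825 for Aurkb and 0.0784 for Kif11. Without plastic replicate 3, the shallowest library, it was 0.0601 for Aurkb, 0.0819 for Bub1, 0.121 for Kif11 and 0.149 for Birc5. With DESeq2 the adjusted p was 0.0917 for Aurkb, 0.0749 for Bub1, 0.139 for Kif11 and 0.0769 for Birc5. With no filter the limma adjusted p was 0.0637 for Kif11 and 0.0576 for Birc5. When every library was thinned to the depth of the shallowest, the limma adjusted p was 0.160 for Aurkb and 0.0536 for Birc5. Hmmr, which binds hyaluronan and spindle microtubules, passed only without microgel replicate 1 (0.0477). The number of the 24 genes called fell from 10 to 6 both without plastic replicate 1 and without plastic replicate 3. Fewer libraries lower the power for every gene, and the share of all genes called in those settings is not given here. The drop is therefore not read as particular to G2/M genes.

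**Figure D2:**
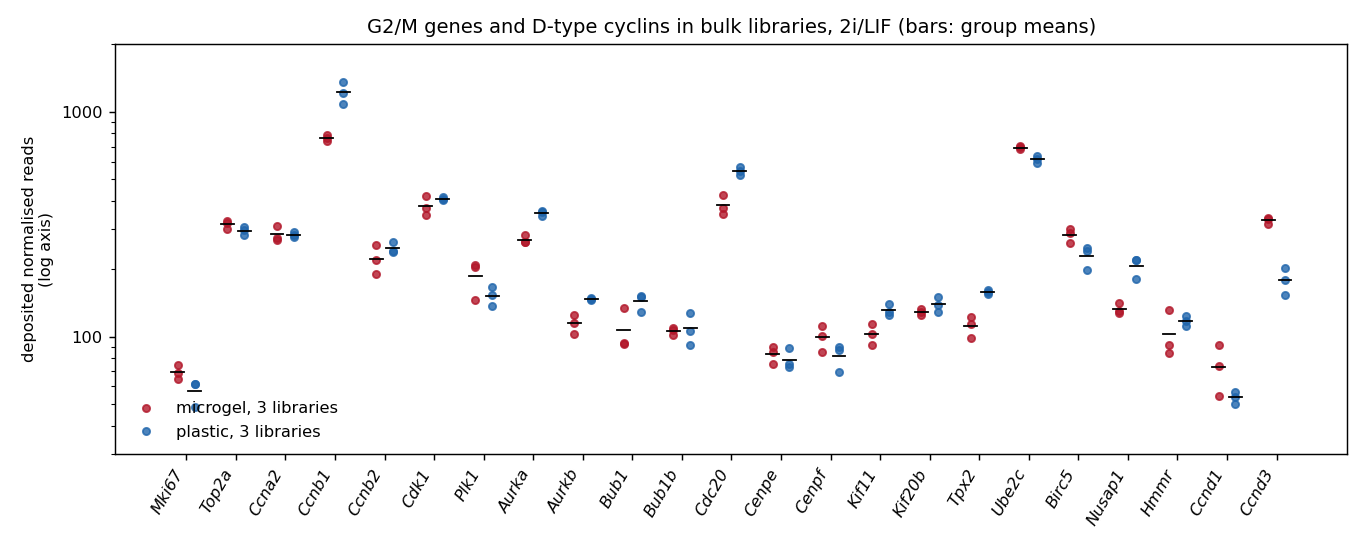
Deposited normalised reads (log axis) of the 21 G2/M genes and of Ccnd1 and Ccnd3 in the 3 microgel and 3 plastic bulk libraries, with a bar at each group mean. Ccnb1, Cdc20, Aurka and Nusap1 lie lower in microgels, Top2a, Ccna2 and Cdk1 overlap, and Ccnd3 lies higher.

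D-type cyclins, which pass growth and adhesion signals to the cell cycle in G1, did not follow the S-phase genes. Ccnd3, cyclin D3 (chromosome 17, 47505051 to 47599691, plus strand, GRCm38), had 317, 338 and 333 normalised reads in microgels and 178, 153 and 202 on plastic. The lowest microgel library lay above the highest plastic one, and Ccnd3 rose by 0.90 on the log2 scale (SE 0.12; limma adjusted p = 2.19e-05), a fold of 1.86. Its exons overlap those of Bysl on the other strand, whose values overlapped between the groups (71.1, 84.7 and 111 in microgels; 97.2, 98.6 and 100.2 on plastic). Ccnd1, cyclin D1, had 54.2, 92.1 and 74.2 in microgels and 56.9, 54.0 and 50.1 on plastic. Microgel replicate 1 lay inside the plastic range, and the log2 fold change of 0.42 ± 0.19 was not called (limma adjusted p = 0.0840). It passed without microgel replicate 1 (0.0158) and with edgeR (0.0483). Ccnd2 was not in the bulk table.

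**Figure D3:**
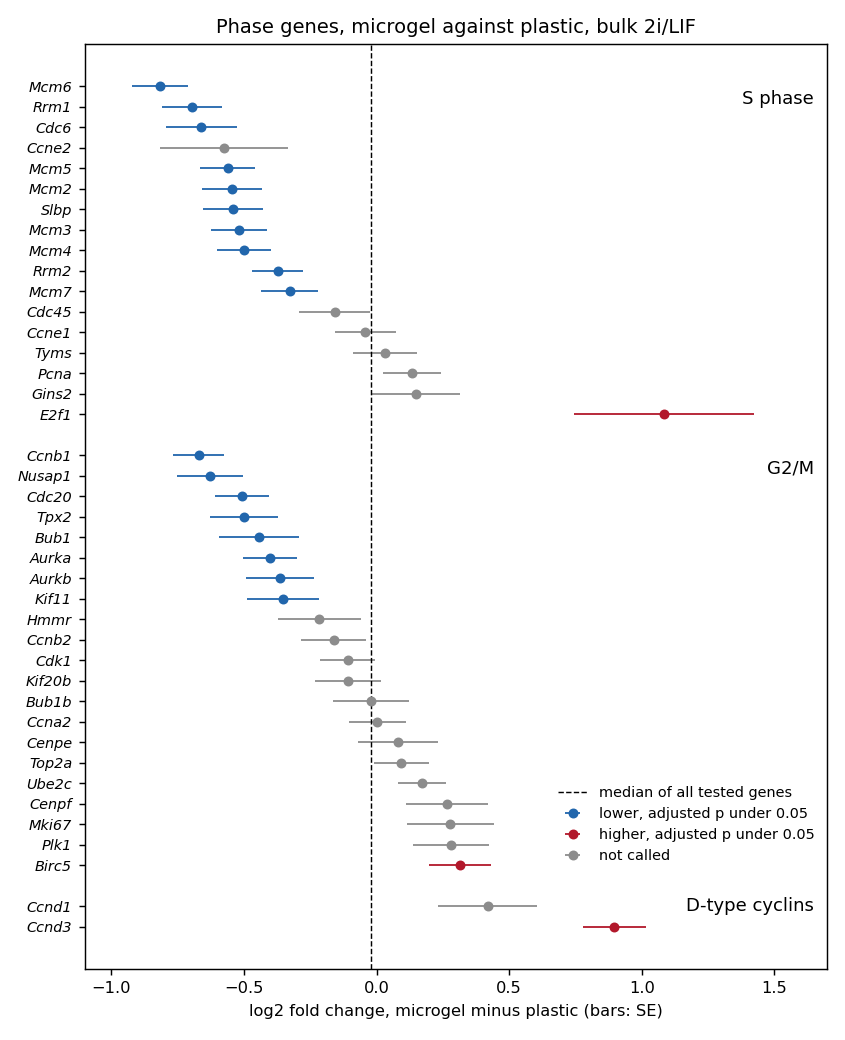
Limma log2 fold changes, microgel minus plastic, with SE bars, of the 40 tested phase genes in bulk 2i/LIF libraries, ordered within S phase, G2/M and D-type cyclins. Blue points fell, red points rose and grey points were not called at adjusted p under 0.05, and the dashed line is the median of all tested genes at -0.02.

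Other genes of the same pathways showed where the phase genes stand. Of 30 further replication genes, all tested, 5 rose and 7 fell, with a median log2 fold change of 0.02. Over all tested genes 36.9% were called, 18.3% higher and 18.6% lower, so this list stood near the background. It leaves out the S-phase genes above, and nothing is read from it about replication genes as a class. Those that fell most were Rpa1, which coats single-stranded DNA (-0.86), Gins3 of the helicase (-0.75) and the nuclease Exo1 (-0.64). Those that rose most were Uhrf1, which guides maintenance methylation behind the fork (0.77), the uracil glycosylase Ung (0.57) and Pola1, the primase-linked polymerase (0.51). Of 36 further mitosis genes, all tested, 19 fell and 2 rose, against 18.6% of all genes lower and 18.3% higher, with a median of -0.39. Kif20a, a kinesin of cytokinesis, had 131, 135 and 166 in microgels and 340.0, 312 and 326 on plastic and fell by 1.18 (SE 0.12). Kif2c, a microtubule depolymerase, fell by 1.10 and Prc1, which bundles the midzone, by 0.96, while the phosphatase Cdc25b (1.55) and the CDK subunit Cks2 (0.51) rose. Of 30 regulators of the cycle 28 were in the table and 20 were tested, and 3 rose and 3 fell, a count near or under the 36.9% called over all genes, so nothing is read from it about regulators as a group. The E2F genes E2f4 (0.98) and E2f3 (0.93) and Mybl2 (0.49), a partner in the complex that drives G2/M genes, rose. The pocket protein gene Rbl1 (-0.96), Lin9 of that same complex (-0.86) and Cdk2 (-0.43) fell. The genes named are the called ones with the largest changes in each direction. Of these, Rpa1, Exo1, Uhrf1, Kif20a, Kif2c, Prc1, Cks2 and E2f4 kept their calls in all settings. The highest limma adjusted p with 1 library left out was 0.0777 for Gins3 and 0.0747 for Lin9 (plastic replicate 1), 0.112 for Ung and 0.125 for E2f3 (plastic replicate 2), 0.0565 for Pola1, 0.101 for Cdc25b (log2 fold change then 0.77) and 0.0997 for Rbl1 (plastic replicate 3). It was 0.0501 for Cdk2 without microgel replicate 2 and 0.0554 for Mybl2 without microgel replicate 3.

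In single cells each condition is 1 library, so differences have no test, and intervals cover counting error only. The wild-type serum/LIF table on plastic stood apart in a way that touches some of these genes. Sox2, an ES cell marker inside the transcript Sox2ot, had 0 UMIs there in 2017950 and 165 to 352 CPM elsewhere. Exosc9, whose exons overlap Ccna2, had 4.46 CPM there and 42.3 to 60.5 elsewhere. Against that library 6.49% to 9.46% of genes with exonic overlap differed by over 8-fold, against 1.74% to 4.08% of genes without, while between JupHigh and JupLow the shares were 0.929% and 1.44%. Of the 42 phase genes 15 have such overlap: Mcm7, Gins2, Cdc45, Ccne2, Slbp and Fen1 of S phase, Top2a, Ccna2, Plk1, Cdc20, Ube2c and Nusap1 of G2/M, and all 3 D-type cyclins. Their differences from wild-type serum/LIF cannot be told apart from a difference in how tables were counted, and sums are therefore also given for the 12 S-phase and 15 G2/M genes without overlap. That library also held 246 CPM of 7 primitive endoderm markers, with all 7 detected, against 3.38 to 84.7 in the other 4. It held 39.1 CPM of the 7 fibroblast markers, against 27.4 in JupLow and 2.90 to 4.87 in the other 3. Of those 79 UMIs 46 were of Col1a1, while 3 of the 7 markers (Dcn, Lum and Postn) had 0. Thy1, at 4.46 CPM, lay within the 3.94 to 5.21 of the other serum/LIF libraries. The part of cells with such markers in the differences was not tested.

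S-phase transcripts differed more between libraries than G2/M transcripts. The 18 S-phase genes summed to 2718 CPM for wild-type serum/LIF on plastic, 3260 for microgels, 3417 for JupLow, 3678 for JupHigh and 4012 for 2i/LIF. The 12 without overlap kept that order, at 2375, 2553, 2728, 2945 and 3170. The intervals of wild-type serum/LIF and microgel cells overlapped (2308 to 2443 and 2353 to 2765), as did those of microgel and JupLow cells (2668 to 2789), while those of JupLow, JupHigh (2894 to 2997) and 2i/LIF (3131 to 3208) did not. The 21 G2/M genes ran from 2981 in microgels to 3479 in JupHigh, with 3075 in wild-type serum/LIF, 3090 in 2i/LIF and 3269 in JupLow. The 15 without overlap ran from 1732 to 2010 in the same libraries. Barcodes under 500 UMIs, below the limit for cells, had like levels in the 4 serum/LIF libraries: 2680 to 3888 for S-phase genes and 3275 to 4443 for G2/M genes. In these barcodes the G2/M level was above that of the cells in all 4 libraries, while the S-phase level was above it in JupHigh and below it in the other 3. No cell was given a phase.

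Between the lines labelled JupHigh and JupLow, whose tables behaved alike for overlapping genes, phase genes differed little. The log2 ratio of the S-phase sum was 0.11 (95% interval 0.07 to 0.14), that of the G2/M sum 0.09 (0.05 to 0.13) and that of the D-type cyclins 0.06 (-0.07 to 0.18), beside a median of -0.09 over 8260 genes with at least 50 UMIs. Past 1.5-fold lay 0 of the 42 phase genes on the higher side, where 8.50% of all genes were, and 1 on the lower side, Ccne2, where 16.6% were. The largest ratios upward were those of Cdc6, at 46.9 against 32.3 CPM (log2 ratio 0.54, 0.18 to 0.91), Kif20b, a kinesin of cytokinesis, at 92.1 against 64.3 (0.52, 0.26 to 0.78), and Mcm5, at 185 against 138 (0.42, 0.25 to 0.60). The largest downward were those of Ccne2, at 14.2 against 22.2 (-0.65, -1.18 to -0.12), Cdk1, at 247 against 301 (-0.29, -0.42 to -0.16), and Bub1, at 28.8 against 34.7 (-0.27, -0.66 to 0.12). The MCM genes gave no common direction here: Mcm6 was at 607 in JupHigh and 488 in JupLow, while Mcm2 was at 352 and 423 and Mcm4 at 276 and 320.3. With every deposited barcode the log2 ratios of Mcm2 (0.055) and Mcm4 (0.056) turned positive, so their direction depends on the choice of cells.

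Against wild-type serum/LIF on plastic the S-phase sum was higher in all 4 other libraries, and by less without overlapping genes. For the microgel library the intervals of the sums without overlapping genes overlapped, as given above, so no direction is read from those. The log2 ratio of the sum was 0.56 in 2i/LIF (0.40 without overlap), 0.44 in JupHigh (0.28), 0.33 in JupLow (0.18) and 0.26 in the microgel library (0.09). The values in brackets divide by UMIs of genes without overlap, so they differ slightly from ratios of the CPM sums given above. All 4 comparisons share the wild-type serum/LIF library on plastic, so they are not independent of each other. Past 1.5-fold on the higher side lay 4 S-phase genes in JupHigh, where 13.4% of all genes were, and 4 in JupLow, where 9.72% were, and of the 12 without overlap 1 (Mcm6) and 0. On the lower side lay 0 S-phase genes in both, where 21.7% and 10.8% of all genes were, and 0 G2/M genes on either side. In 2i/LIF 6 S-phase genes lay past 1.5-fold on the higher side, where 21.1% of all genes were, but only 2 of the 12 without overlap, Mcm6 and E2f1. Mcm6 had 353 CPM in wild-type serum/LIF, 406 in microgels, 488 in JupLow, 607 in JupHigh and 608 in 2i/LIF. The last 2 did not differ beyond counting error. E2f1 had 33.7, 21.2, 35.1, 44.8 and 78.2 in the same order, so 2i/LIF stood above the rest. Of the other S-phase genes with most UMIs, Mcm2 ran from 308 to 423, Rrm2 from 298 to 397 and Mcm4 from 276 to 330.3, lowest in wild-type serum/LIF for Mcm2 and Rrm2 and lowest there and in JupHigh for Mcm4. Mcm7, with overlap, stood at 187 in wild-type serum/LIF and 385 to 479 elsewhere, and Fen1 at 11.9 and 100.4 to 157. Tmem258, the neighbour of Fen1, was not low there, at 58.5 against 42.3 to 76.3 elsewhere.

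G2/M genes showed smaller ratios. The G2/M sum of 2i/LIF over wild-type serum/LIF had a log2 ratio of 0.01 (-0.03 to 0.05), and 0 of the 21 genes lay past 1.5-fold on the higher side and 1, Mki67, on the lower side, where 20.2% of all genes were. Mki67 had 112 CPM in wild-type serum/LIF, 97.4 in microgels, 95.5 in JupLow, 86.1 in JupHigh and 67.2 in 2i/LIF, where its interval (61.8 to 73.1) lay below those of the other plastic libraries. Of the 5 with most UMIs, Top2a was highest in JupHigh at 707 and 551 to 605 elsewhere. Ube2c ran from 254 to 339, Birc5 from 199 to 335, Cdk1 from 207 to 301 and Ccnb1 from 198 to 255. Birc5 was lower in both wild-type serum/LIF libraries (238 on plastic and 199 in microgels) than in the other 3 (311 to 335), and Ccnb1 had an interval in JupHigh (240.3 to 271) above those of the other 3 plastic libraries.

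The D-type cyclins, all 3 with exonic overlap, differed widely between libraries. Ccnd1 had 49.1 CPM (39.9 to 59.7) in wild-type serum/LIF, 72.0 (41.9 to 115) in microgels, 191 (175 to 208) in JupLow, 179 (167 to 192) in JupHigh and 206 (197 to 216) in 2i/LIF. The first 2 of these did not differ beyond counting error, nor did the lines labelled JupLow and JupHigh. Ccnd3 had 8.92 (5.29 to 14.1), 50.8 (26.3 to 88.7), 76.4 (66.7 to 87.2), 96.5 (87.5 to 106) and 137 (129 to 146) in the same order. Its overlapping neighbour Bysl was level, at 55.0 to 66.0 in all 5. Ccnd2 ran the other way, with 45.1 (36.3 to 55.4) in wild-type serum/LIF, 16.9 (4.61 to 43.4) in microgels, 18.8 (14.1 to 24.5) in JupLow, 22.0 (17.8 to 26.9) in JupHigh and 2.66 (1.66 to 4.02) in 2i/LIF. In 2i/LIF, then, Ccnd1 and Ccnd3 had their highest and Ccnd2 its lowest level, although the Ccnd1 interval there overlapped that of JupLow. The Ccnd1 intervals of both lines also lay above that of the microgel library. The part of how tables were counted in these D-type cyclin differences was not tested.

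E-type cyclins moved less. Ccne1, which has no overlap, had 209 (190 to 230) in wild-type serum/LIF, 220.2 (164 to 289) in microgels, 222 (206 to 240) in JupLow, 265 (249 to 280) in JupHigh and 145 (137 to 153) in 2i/LIF. Only the 2i/LIF interval lay below those of the other 4, and that of JupHigh lay above those of JupLow and wild-type serum/LIF on plastic. Ccne2 had 13.9, 25.4, 22.2, 14.2 and 10.7, from 6 to 89 UMIs, and only the intervals of JupLow and 2i/LIF did not overlap. The interval of its JupHigh over JupLow ratio, given above, was nevertheless wholly negative.

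**Figure D4:**
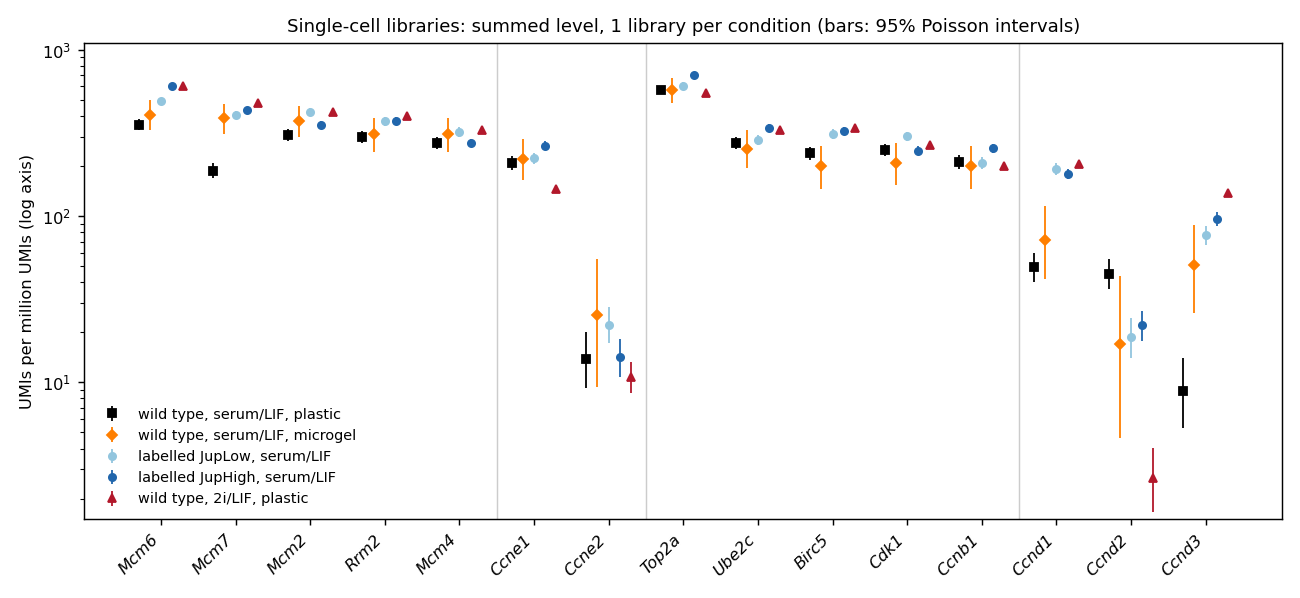
CPM (log axis, 95% Poisson bars) of the 5 S-phase and 5 G2/M genes with most UMIs and of the E-type and D-type cyclins in the 5 single-cell libraries, 1 per condition. Most genes differ by little, while Ccnd1 and Ccnd3 run from 49.1 and 8.92 in wild-type serum/LIF to 206 and 137 in 2i/LIF, and Ccnd2 runs the other way.

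The microgel comparison exists in both assays, but in different media and lines. In single cells the 5 MCM genes without overlap, Mcm2 to Mcm6, summed to 1482 CPM (1331 to 1645) in microgels and 1334 (1284 to 1385) on plastic in serum/LIF. These intervals overlapped, so no direction is read from the single-cell sums. In bulk 2i/LIF libraries each of the 5 was lower in microgels. The single-cell microgel library holds 112 cells and 236195 UMIs, and of the 21 G2/M genes 0 lay past 1.5-fold higher, where 8.75% of all genes were, and 1, Cenpe, lower (9 UMIs in microgels), where 21.8% were. Ccnb1, which fell in bulk, was at 199 (146 to 265) in microgels and 210.1 (191 to 231) on plastic, a difference not detectable at this depth.

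Most barcodes taken as cells held UMIs of the phase genes. After thinning every cell to 1000 UMIs, 86.6% to 93.0% of cells had an S-phase UMI and 88.4% to 92.2% a G2/M UMI, and before thinning 94.6% to 97.4% and 92.9% to 97.6%. Barcodes under 500 UMIs carried like levels in the 4 serum/LIF libraries, so shares of cells with a UMI are not read as shares of cells that express these genes. At least 5 S-phase UMIs stood in 18.8% of thinned cells in wild-type serum/LIF (exact binomial interval 16.0 to 21.8), 25.9% in microgels (18.1 to 35.0), 25.3% in JupLow (22.9 to 27.9), 32.2% in JupHigh (30.2 to 34.2) and 33.7% in 2i/LIF (32.0 to 35.4). At least 5 G2/M UMIs stood in 21.8%, 19.6%, 25.7%, 29.6% and 21.6%, so 2i/LIF was high for S-phase and not for G2/M transcripts. Genes with exonic overlap are included in these shares. The 6 such S-phase genes summed to 343 CPM in wild-type serum/LIF and 689 to 842 elsewhere. Shares without them were not computed, and the part of how tables were counted in differences from wild-type serum/LIF was not tested. The variance of the summed count divided by its mean was 1.54 to 1.79 for S-phase and 1.496 to 1.89 for G2/M genes, where chance sampling from equal cells gives a value near 1. The variance of the sum was 1.43 to 1.63 times the sum of the single genes' variances for S-phase genes and 1.37 to 1.60 times for G2/M genes, so genes of a group varied together from cell to cell. For the D-type cyclins that ratio was 0.921 to 1.07. The S-phase and G2/M sums were also positively correlated over these cells, from 0.08 in microgels to 0.24 in JupHigh. The microgel value rests on 112 cells. Some varying together was thus also seen between the groups, and whether it was stronger within a group was not tested. A D-type cyclin UMI was seen in 8.28% of thinned wild-type serum/LIF cells, 13.4% of microgel cells and 23.6% to 24.6% in the other 3 libraries. All 3 D-type cyclins have exonic overlap, and the part of how tables were counted in these shares was not tested either.

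**Figure D5:**
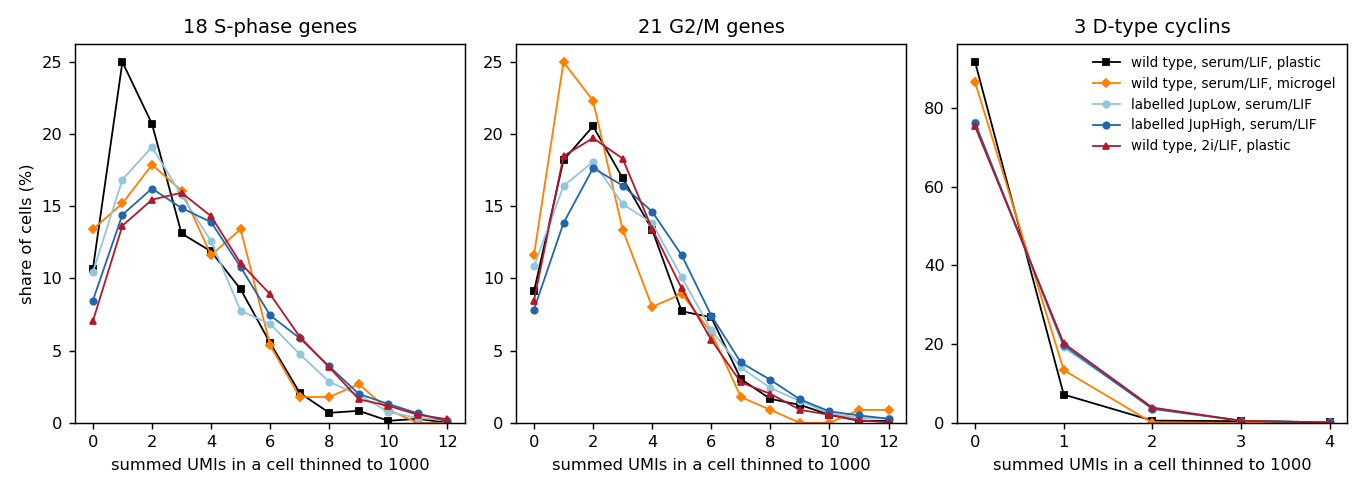
Share of cells (%) by summed UMIs of the 18 S-phase genes, the 21 G2/M genes and the 3 D-type cyclins in each single-cell library, every cell thinned to 1000 UMIs. The S-phase curves of JupHigh and 2i/LIF reach farther right than that of wild-type serum/LIF, the G2/M curves lie closer together, and no curve has a separate second peak. Genes with exonic overlap are included in all 3 sums.

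S-phase levels also differed by the size of the cell's library. In 2i/LIF the S-phase sum was 2862 CPM in the first of 4 equal groups of cells ordered by UMIs and 4336 in the last. In JupLow it was 2681 and 4077, and in JupHigh 3390 and 3865. In wild-type serum/LIF the 4 groups had 2567, 2526, 2806 and 2770, without a steady rise. In microgels, with 28 cells a group, it was 3043, 2740, 2398 and 4012 from the first group to the last, without a steady rise. The G2/M sum of the 4 groups was 2699, 3090, 2951 and 3261 in 2i/LIF and 3300, 2683, 3248 and 3547 in JupLow. In JupHigh it was 3369, 3308, 3339 and 3726, and in wild-type serum/LIF 3008, 2865, 3003 and 3203. Microgels had 2421, 2616, 2648 and 3471, the only library in which this sum rose at every step. Thinned cells with at least 10 G2/M UMIs were few, 24 of 2889 in 2i/LIF and 38 of 2153 in JupHigh. Their D-type cyclin level was 521 CPM in 2i/LIF and 352 in JupHigh, against 249 and 181 in cells with 0 or 1 G2/M UMI. In JupLow it was 489 in 17 cells against 284, and in microgels 307 in 2 cells against 114. Wild-type serum/LIF had 0 in 6 cells against 95.3. These 6 cells, with a median of 1367 UMIs, and the 2 microgel cells are too few to give a direction. The S-phase sum was also higher in cells with at least 10 G2/M UMIs in 2i/LIF (4397 against 3299 CPM) and JupHigh (4667 against 2609). It was 4418 against 2607 in JupLow, but 2322 against 2418 in wild-type serum/LIF and 1842 against 2721 in microgels. Both the D-type cyclin and the S-phase differences rest on few cells in every library and have no intervals here. Cells with at least 10 G2/M UMIs also differed in total UMIs from those with 0 or 1. Their median was 3880 against 2521 in 2i/LIF, 2207.5 against 1908 in JupHigh and 3185 against 2058 in JupLow. It was 3258 against 1684 in microgels and 1367 against 2416.5 in wild-type serum/LIF. In 2i/LIF the D-type cyclin level was itself 204 CPM in the first group of cells ordered by UMIs and 389 in the last. Total UMIs per cell differ with a cell's RNA content and with capture, and their part in these levels was not tested.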

How the data were processed

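The 6 bulk libraries and 5 single-cell libraries of mouse ES cells were analysed here. The bulk table holds a signal that the authors deposited as reads divided by 1 factor per library; 100% of values came back whole within 0.01 reads. The single-cell tables hold UMI counts per barcode and gene, as deposited by the authors. FastQC, STAR, featureCounts, DESeq2 and Scanpy, with builds mm10 and GRCm38, are named without roles in the submitters' processing notes. Here limma 3.58.1 with an intensity trend was run in R 4.3.3 on log2(value + 0.5), over genes passing edgeR 4.0.16 filterByExpr, with 3 libraries against 3; edgeR and DESeq2 1.42.0 on the recovered reads were alternatives, and the code was tested on simulated data. Replicate numbers did not pair the libraries (correlations -0.05, 0.02 and 0.02). Single-cell UMIs were summed over barcodes of at least 1000 UMIs, leaving out 0 to 6 barcodes per library that were runs of G; no doublet caller was run. The last row of the microgel single-cell table is cut short, and that barcode was left out. Confidence intervals are 95%, exact Poisson for levels, exact conditional binomial for ratios and exact binomial for shares. They cover counting error only. Gene positions and overlaps are from GENCODE on GRCm38. Named genes were set by rule: every called member, library values for the 6 S-phase and 6 G2/M calls with the largest change, D- and E-type cyclins and 5 common markers, the 3 largest called changes in each direction per further list, and in single cells the 5 genes of each phase with most UMIs and the 3 largest ratios each way. The label of plastic replicate 2 calls it replicate 2 in its title and triplicate 3 in its description. The members and lists were chosen with earlier results of these data known.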

Additional observations from a re-analysis of the deposited data

How the results depend on the processing

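Bulk S-phase calls (11) ranged from 9 to 12 and their median log2 fold change from -0.52 to -0.38 over the settings tried. G2/M calls (10) ranged from 6 with DESeq2 to 12 with edgeR. When 1 library was left out they ranged from 6 to 9 (S-phase: 9 to 11). The G2/M median ranged from -0.16 to -0.06. The shares of all genes called in these settings are not given here, so the changes in counts are not read as particular to phase genes. With the replicate number as a block, S-phase calls were 12 and G2/M calls 10; Ccne2 (adjusted p = 0.0489) was the only phase gene whose call differed under that limma pairing. The median over all tested genes was 0.00039 with no filter and 0.0025 with DESeq2, against -0.02. Single-cell log2 ratios of summed lists moved with the choice of cells: with at least 2000 UMIs, 0.41 for S-phase in JupLow over wild-type serum/LIF, and in microgel over plastic 0.38 for S-phase and 0.11 for G2/M; with every deposited barcode, 0.27 (S-phase) and 0.15 (G2/M) for JupHigh over JupLow, 0.20 for S-phase in JupLow over wild type, and -0.062 for G2/M in 2i over serum. Scaling by TMM adds 0.11 to every gene of JupHigh over JupLow, and against wild-type serum/LIF 0.28 for JupHigh, 0.17 for JupLow, 0.25 for 2i/LIF and 0.08 for microgels. It gave, for S-phase and G2/M, 0.21 and 0.20 for JupHigh over JupLow, 0.71 and 0.46 for JupHigh over wild type, 0.50 and 0.26 for JupLow over wild type, and 0.82 and 0.26 for 2i over serum; D-type cyclins came to 1.81 for JupHigh and 2.00 for 2i. Without overlapping genes, which were also left out of the total UMIs, G2/M was 0.030 for JupHigh over JupLow and 0.10 for JupHigh over wild type. S-phase was then 0.28, 0.18, 0.40 and 0.092 for JupHigh, JupLow, 2i/LIF and microgels over wild-type serum/LIF on plastic. The D-type cyclins have no such value, since all 3 overlap. With every barcode 6 single-gene ratios changed sign: for JupHigh over JupLow, Mcm2 0.055, Mcm4 0.056, Tpx2 0.10 and Ube2c -0.10, for JupHigh over wild type Cdc20 -0.18, and for 2i over serum Ube2c -0.072. The cause was not tested. Depth limits Fen1 and E2f1 in bulk and every gene of the 112 microgel cells.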
